A study of Mus musculus with 2 samples.

Results

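Cilium genes were followed in the forebrain and midbrain of mouse embryos at E10.5 (embryonic day), where Plzf lu/lu mutants were compared with wild type on 2-colour Agilent gene expression arrays. Plzf, the zinc finger transcriptional regulator whose gene the arrays name Zbtb16, is disrupted in luxoid mice by a spontaneous single nucleotide change in the coding sequence, and lu/lu embryos carry it on both copies. Wild type RNA, from mice whose strain is labelled C57BL/6, was labelled with Cy3 (green) and RNA from the luxoid strain with Cy5 (red) on each of 2 arrays, so 2 samples per genotype were measured. The series has no other group, and the number of embryos behind a sample is not given in the sources used here. Members were chosen by gene name: intraflagellar transport genes (Ift plus a number), Bardet-Biedl genes (Bbs), tectonics (Tctn), cilia and flagella associated protein genes (Cfap) and axonemal dynein heavy chains (Dnah), together with Mks1, Arl13b, Kif3a, Kif3b, Rpgrip1l, Ofd1, Kif7 and Foxj1. The rule found 66 of the 37074 gene names on the array, read by 160 probes of 60 bases. One of the 66, Dnah2os, is an antisense transcript that the name rule takes in and is not counted with the dyneins.

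A cilium is a membrane-covered projection built around a microtubule core, the axoneme. Most neuroepithelial cells of the early brain carry a single primary cilium, which does not beat and which Hedgehog signalling needs, whereas motile cilia beat by means of dynein arms and are made by multiciliated and nodal cells. Intraflagellar transport carries cargo along the axoneme with kinesin-II as the motor towards the tip. The BBS proteins move membrane cargo, and the tectonics, Mks1 and Rpgrip1l form a gate at the cilium base. Foxj1 is the transcription factor that switches on the motile cilium programme.

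Each value below is the processed signal, in arbitrary intensity units, of the brightest probe of a gene, and each ratio is that of lu/lu over wild type within 1 array on the log2 scale. The signal filter asked for a signal above 200 with a signal-to-noise ratio no lower than 5 in each of the 4 channels, and 10600 genes passed it. A gene was called where both of its ratios exceeded 1.3-fold one way, and limma with Benjamini-Hochberg adjustment over the 10600 genes gave the test. Because both arrays carried wild type in the green channel, a dye effect and a genotype effect cannot be told apart. With 2 arrays an exact two-sided sign-flip test cannot go below p = 0.5. Nothing in the labels says that the samples of a genotype came from separate litters. The limma p-values therefore rest on the spread between these 2 arrays, moderated by a variance pooled across genes, and on no known spread between litters. Zbtb16 itself read 433 in wild type and 172 in lu/lu on array 1, and 546 and 211 on array 2. Its log2 ratios of -1.33 and -1.37 put lu/lu lower on both arrays. Since its lu/lu signal on array 1 was under 200, Zbtb16 missed the filter. In a limma fit over the 23283 genes well above background its adjusted p was 0.252. The position of the probe relative to the luxoid change was not examined, and a lower transcript signal is no check of the genotype. Of the marker lists, neuroepithelium (8 of 8 genes) and neuron (7 of 8 genes) passed the filter, so neural genes were present. Genes of other tissues passed too, 6 of 8 for surface ectoderm, 6 of 8 for cranial mesenchyme and 5 of 7 for primitive erythrocytes. No list was made for forebrain or midbrain identity. Bulk RNA cannot tell fewer cells of a type from less RNA per cell.

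The sequences behind the results were of 2 kinds, probes and promoters. The opening 30 bases of the 60-base probe are shown for Foxj1, Gmnc and Ccno and for probes A and B of Cfap126 and Kif3a, with positions in the mm9 build. Some of the other members whose probes gave unlike answers are named below and not printed. The Foxj1 probe lies at chr11:116192214-116192273 on the minus strand, the Cfap126 probes A and B at chr1:173056963-173057022 and chr1:173056788-173056847 on the plus strand, and the Kif3a probes A and B at chr11:53397887-53397946 and chr11:53417589-53417648 on the plus strand. The Gmnc probe lies at chr16:26957544-26957603 on the minus strand and the Ccno probe at chr13:113780810-113780869 on the plus strand.
Foxj1: ggagagactaatatagtgaatgtagttata
Cfap126 probe A: ttttagagactgaccgaaataggtgagacc
Cfap126 probe B: gttatccaaggagacaacccagatgaaccg
Kif3a probe A: gatgctctgctccgccagtttcagaaagaa
Kif3a probe B: caaactgtacagaaagttggctgtgttaat
Gmnc: catatgcacccaagatctctgttttgggat
Ccno: caagagacagtccctggtgcaacacaggaa

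Promoters were read from RefSeq (GRCm38.p6), 250 bases before to 50 after each start, and 57 of the 66 members had at least 1 entry. They were searched on both strands for the X-box, the palindrome bound by RFX transcription factors, spelled GTNNCC, any 3 bases, GNAAC. The motif was chosen after its matches had been seen, so its counts are descriptions. It was present in 20.0% of the members' 60 promoters (12 genes) and in 2.17% of all 32851 promoters. Among transport genes it was found in Bbs1, Bbs4, Bbs7, Ift22 and Ift57, at the gate in Mks1, Tctn1 and Tctn2, and among axonemal genes in Cfap44, Cfap45, Cfap61 and Dnah17. To show the shared element, 5 of these stretches are printed from members named in the results below, with the X-box in capitals. Each is printed on the strand of its gene. The capitals of Ift57 and Cfap45 match the motif as spelled only when read on the opposite strand. In GRCm38.p6 they lie at chr11:87853183-87853212 for Mks1, chr3:36613489-36613518 for Bbs7, chr16:49699199-49699228 for Ift57, chr5:136908109-136908138 for Ift22 and chr1:172521103-172521132 for Cfap45, the Ift22 stretch being the nearer to the start of 2 there, the Bbs7 stretch being on the minus strand and the rest on the plus strand.
Mks1: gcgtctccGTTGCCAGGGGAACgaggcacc
Bbs7: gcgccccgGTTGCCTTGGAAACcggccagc
Ift57: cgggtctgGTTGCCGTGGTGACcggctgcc
Ift22: tgttcccgGTCGCCGTGGAAACtgaccagc
Cfap45: gttcttggGTTGCTATGGTAACgcgtcagc
The 8 passing members with an X-box had median log2 ratios of 0.02 on array 1 and -0.02 on array 2, and the 18 passing members with an entry and no X-box had medians of 0.01 and 0.05.

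Detection followed the class of gene. All 14 Ift genes passed the signal filter, as did 5 of 8 Bbs genes, 1 of 2 kinesin-II genes, 4 of 6 gate genes and 1 of 2 signalling genes. Of the axonemal genes, 5 of 18 Cfap, 27.8%, and 0 of 14 Dnah passed. Of all genes 28.6% passed, so the Cfap share was near that of all genes. In all, 30 of the 66 members passed the filter, and 31 others were well above background in all 4 channels without passing it. The remaining 5, Cfap58, Dnah3, Dnah5, Dnah10 and Dnah12, were not well above background on at least 1 channel. None of the dynein heavy chains, the motors of beating cilia, therefore passed in all 4 channels. Dnah7a was above 200 on array 2, at 239 in wild type and 224 in lu/lu, and under it on array 1, at 195 and 193.

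**Figure D1:**
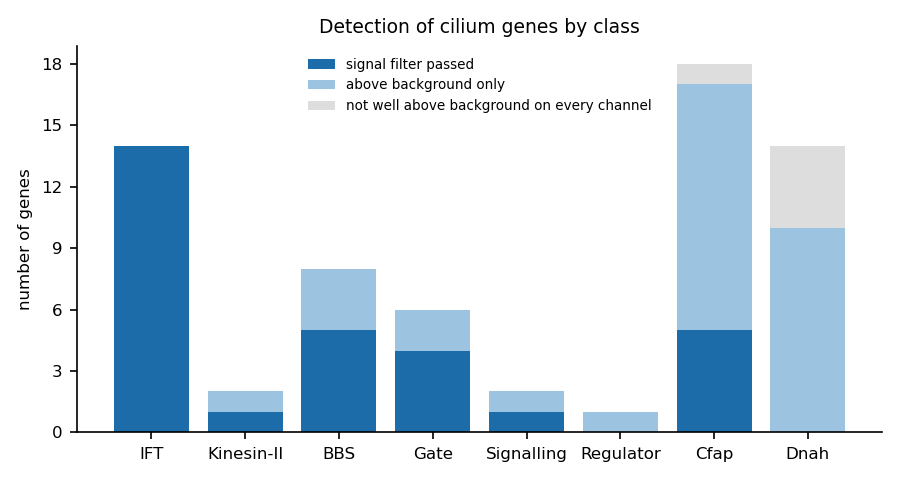
Number of genes (y axis) in each class of cilium gene (x axis), split by detection. All 14 Ift genes passed the signal filter, against 5 of 18 Cfap genes, 0 of 14 Dnah genes and 28.6% of all genes.

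The 30 passing members differed little between the genotypes. Their ratios ran from 0.680 to 1.23-fold on array 1 and from 0.759 to 1.23-fold on array 2. None was called higher and 1, Cfap126, was called lower, where 2.58% of all passing genes were called higher and 0.736% lower. limma called 0 of the 30 at an adjusted p under 0.05 and 3 of the 10600 genes, or 0.0283%. At an unadjusted p under 0.05 the counts were 7 of 30 members, 23.3%, and 27.8% of all passing genes, so neither count set the members above the background. The SD of the mean log2 ratio was 0.174 over the passing members and 0.210 over all passing genes. The ratio had the same sign on both arrays in 19 of the 30 members, 63.3%, and in 72.6% of all passing genes.

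**Figure D2:**
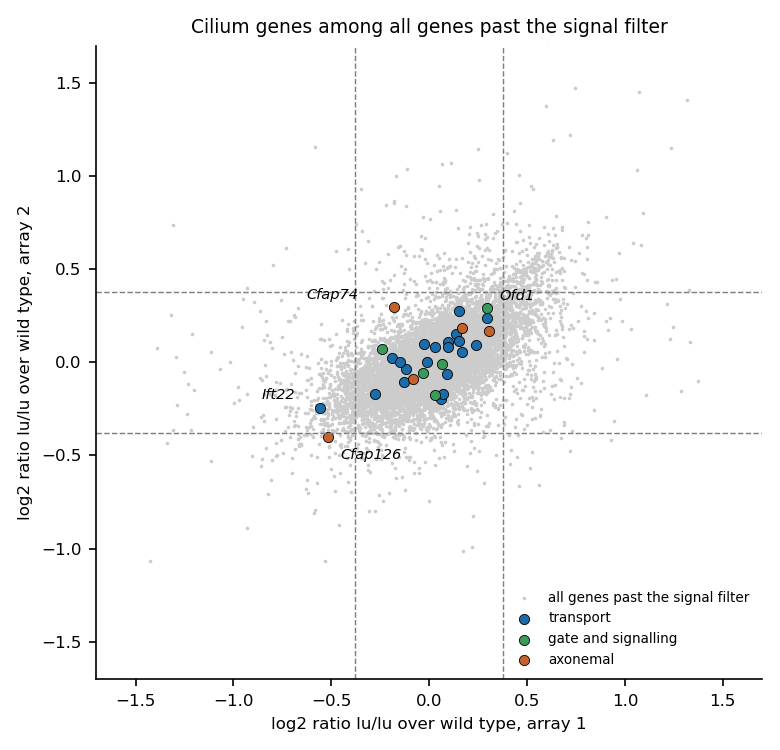
Log2 ratio of lu/lu over wild type on array 1 (x axis) against array 2 (y axis) for the genes past the signal filter in grey and the 30 passing members in colour. Dashed lines mark 1.3-fold, and Cfap126 is the only member beyond them on both arrays. In all, 5 genes of the 10600, none of them members, fall outside the axes.

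Transport genes stayed close to the median of all genes, and none was called. The median log2 ratio of the 20 passing Ift, Bbs and kinesin-II genes was 0.07 on array 1 and 0.04 on array 2, against 0.02 and -0.0047 for all passing genes. Across the 2 arrays 11 of the 20 had a mean ratio above 1 and 9 below it. With the trend of the ratio on probe GC content removed, the median over both arrays went from 0.03 to -0.03.

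Of the genes named Ift plus a number, the highest ratios belonged to Ift81, which helps to carry tubulin, Ift140, a subunit of the complex for the return journey, and Ift46. Ift81 read 1414 in wild type and 1735 in lu/lu on array 1, and 1459 and 1718 on array 2. Its log2 ratios were 0.30 and 0.24 (adjusted p = 0.105), so lu/lu was the brighter channel both times by less than 1.3-fold. The other Ift81 probe, above background and under the filter, gave -0.06 and 0.02, and the mean over probes was 0.12 over both arrays. Ift140 read 848 and 942, then 737 and 893, with ratios of 0.15 and 0.28 (adjusted p = 0.157). Ift46 had ratios of 0.15 and 0.12.

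The lowest ratios belonged to Ift22, Ift20 and Ift27, the small GTPases Ift22 and Ift27 among them. Ift22 read 473 in wild type and 322 in lu/lu on array 1, and 392 and 331 on array 2. The log2 ratios of -0.56 and -0.24 kept the sign, but only array 1 lay beyond 1.3-fold (adjusted p = 0.0877). A second Ift22 probe that missed the filter gave -0.40 and 0.16. Ift20, which also works at the Golgi, had ratios of -0.28 and -0.17 (adjusted p = 0.141), and Ift27 had -0.13 and -0.11. The 95% limma intervals of the fold, which rest on a spread pooled across genes, ran from 0.639 to 0.899 for Ift22, from 0.749 to 0.978 for Ift20 and from 1.06 to 1.37 for Ift81. Among the rest, Ift88, the subunit lost in the polycystic kidney mouse, had ratios of 0.09 and -0.06.

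Kinesin-II gave 2 unlike readings. Kif3a probe A, the brighter, read 840.1 in wild type and 757 in lu/lu on array 1 and 819 and 820.3 on array 2, with log2 ratios of -0.15 and 0.0023. Probe B of the same gene also passed the filter and gave 0.34 and 0.35, higher in lu/lu on both arrays. Kif3b, the partner motor subunit, missed the filter at 41.9 and 49.8, then 42.5 and 45.6, with ratios of 0.25 and 0.10. The sign of the Kif3a ratio therefore depended on the probe.

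The Bbs genes lay close to equal signal. Of the 5 that passed, Bbs9 (0.24 and 0.09), Bbs12 (0.14 and 0.15) and Bbs1 (0.09 and 0.11) were above 1 on both arrays, Bbs4 (-0.12 and -0.04) was below 1 on both, and Bbs7 (0.06 and -0.20) changed sign. Bbs1, Bbs4, Bbs7 and Bbs9 encode subunits of the BBSome coat, and Bbs12 belongs to the chaperonins that assemble it. The 95% intervals of the fold for these 5 genes lay between 0.814 and 1.29. Of those that missed the filter, Bbs10 and Bbs2 had ratios of 0.19 and 0.14 and of 0.13 and 0.09, and Bbs5 of 0.11 and -0.09. Ift46, Bbs4 and Bbs9 share chromosome 9 with Zbtb16, the nearest, Ift46, at 3.86 Mb from it in mm9, and the part of linked strain differences in their ratios was not tested.

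At the cilium base, Ofd1, a centriolar protein whose human counterpart underlies oral-facial-digital syndrome, had the highest mean ratio of all passing members. It read 477 in wild type and 586 in lu/lu on array 1, and 491 and 601 on array 2. The log2 ratios were 0.30 and 0.29, lu/lu being higher on both arrays by less than 1.3-fold (adjusted p = 0.0903). With the GC trend of the probes removed the ratios were 0.16 and 0.25. The other Ofd1 probe was not well above background, and the mean over both probes was -0.37 and -0.36. Ofd1 lies on the X chromosome and the sexes of the embryos are not given in the sources used here. Xist, at signals of only 20.7 to 33.9, had ratios of 0.38 and 0.18, and the Y-linked Eif2s3y had 0.58 and 0.19, Ddx3y 0.25 and 0.24, Kdm5d 0.14 and 0.05 and Uty -0.12 and 0.0035. The part of embryo sex in the Ofd1 ratio was not tested. Mks1 had ratios of 0.07 and -0.01, Tctn2 of -0.03 and -0.06, and Tctn1 of -0.24 and 0.07. The other passing Tctn1 probe gave 0.18 and 0.23, so its sign changed with the probe. Rpgrip1l (0.02 and -0.10) and Tctn3 (0.15 and 0.08) missed the filter. One more Tctn3 probe above background gave 0.59 and -0.04. A further one, placed on the opposite strand, gave -0.51 and -0.40, beyond 1.3-fold on both arrays. Another Rpgrip1l probe above background gave 0.40 and 0.25, so its sign on array 2 also changed with the probe.

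The signalling members were Arl13b, a small GTPase of the ciliary membrane, and Kif7, the kinesin that regulates Gli factors at the cilium tip. Arl13b read 207 and 211 on array 1 and 234 and 207 on array 2, with log2 ratios of 0.03 and -0.17. Kif7 missed the filter with 85 and 92, then 83 and 91, and ratios of 0.12 and 0.13. On the same arrays Shh, the Hedgehog ligand of the floor plate, read 536 and 1120.2, then 677 and 1385, with ratios of 1.06 and 1.03.

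**Figure D3:**
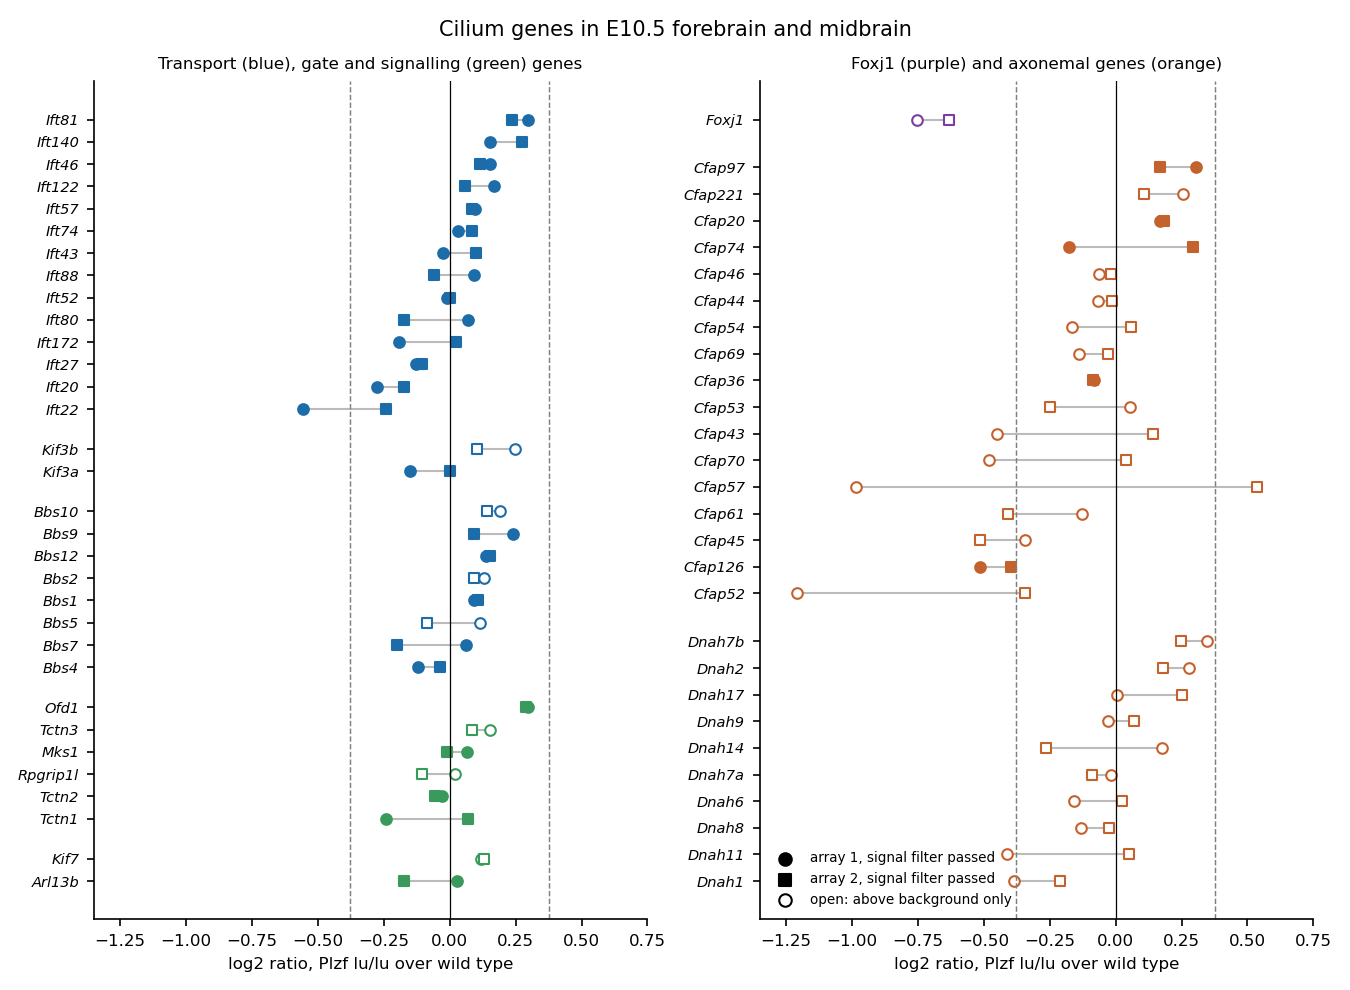
Log2 ratio of lu/lu over wild type (x axis) for the members well above background in all 4 channels, without Dnah2os, 1 row a gene, with circles for array 1 and squares for array 2. Filled symbols passed the signal filter and dashed lines mark 1.3-fold. Foxj1 and Cfap126 lie beyond the lower line on both arrays, and no transport gene lies beyond a line on both.

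Of the passing axonemal genes, Cfap126 was lower in lu/lu. Cfap126 (also called Flattop) acts at basal bodies in the positioning of motile cilia, and it is a gene the study listed as changed on these samples, so its call is no independent evidence. Probe A read 443 in wild type and 309.8 in lu/lu on array 1, and 409 and 310.1 on array 2, and neither lu/lu value reached a wild type one. The log2 ratios were -0.52 and -0.40, with a mean of -0.46 (n = 2 arrays). The limma standard error, moderated across genes, was 0.0782, and the limma test gave an adjusted p of 0.0566. Probe B read 117 and 105, then 122 and 109, with ratios of -0.17 and -0.16, the same sign at a smaller size and under the signal filter. The 1.3-fold call was lost when both probes were averaged (-0.34 and -0.28), when normexp background correction with loess replaced the processed signals (-0.46 and -0.34), and at 1.5-fold. With the GC trend removed, limma called Cfap126 as well.

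The other 4 passing axonemal genes were not called. Cfap20, found in many ciliated and non-ciliated cells, read 3473 and 3902, then 3438 and 3901, with ratios of 0.17 and 0.18. Its other passing probe gave -0.12 and -0.12, again of opposite sign. Cfap97 had ratios of 0.30 and 0.17 (adjusted p = 0.134) and Cfap36 of -0.08 and -0.09. Cfap74, of the central pair, had -0.18 and 0.29, so its 2 arrays disagreed. That Cfap74 probe read 5925 to 8138. Other Cfap74 probes above background read only 12.1 to 28.1 and gave -0.11 and -0.13, and -0.26 and -0.32. The median of the 5 passing axonemal genes was -0.08 on array 1 and 0.17 on array 2. For the mean of both arrays their median was 0.058, which is the value of Cfap74.

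Probes of the same gene often gave ratios of unlike sign. Of 39 other probes well above background, 22 had a mean ratio of the same sign as the brightest probe. Of 7 other probes that passed the filter, each set beside the brightest probe of its gene, 2 had a mean ratio of the same sign. These were probes of Cfap36 and Ift74, and those of Cfap20, Ift46, Kif3a, Tctn1 and Tctn2 had the opposite sign. No ratio of these probes lay beyond 1.3-fold.

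**Figure D4:**
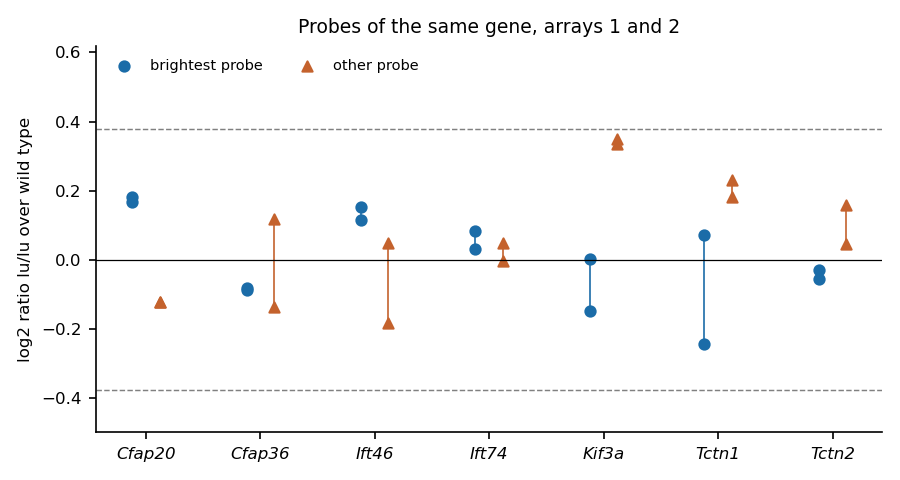
Log2 ratio of lu/lu over wild type (y axis) on each array for the 7 members with another probe past the signal filter (x axis), circles for the brightest probe and triangles for the other. Dashed lines mark 1.3-fold. For Kif3a the other probe lies at 0.34 and 0.35 and the brightest probe at -0.15 and 0.0023.

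When the genes well above background were included, transport and axonemal genes stood on either side of the median of all genes on array 1. The median log2 ratio of the 24 transport genes was 0.09 on array 1 and 0.07 on array 2, and that of the 27 axonemal genes was -0.13 and 0.03. The difference of the medians, transport minus axonemal, was 0.22 and 0.04. Restricted to passing genes, the difference came to 0.15 for array 1 but -0.13 for array 2, so the arrays gave opposite signs. A ratio below 1 on both arrays was found in 4 of 24 transport genes, 16.7%, in 11 of 27 axonemal genes, 40.7%, and in 33.2% of all 23283 genes above background. A ratio above 1 on both arrays was found in 12 of 24, 50.0%, in 6 of 27, 22.2%, and in 33.4% of all genes. With 2 arrays an exact sign-flip test of this difference cannot go below p = 0.5, and members of 1 class are not replicates.

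The Cfap genes under the filter were spread over a wider range. Cfap52, a protein inside the axonemal doublet, had ratios of -1.21 and -0.34 at signals of 25 and 11, then 16 and 12. Cfap45, another inner doublet protein, had -0.34 and -0.51, and Cfap61, of the calmodulin- and spoke-associated complex, had -0.13 and -0.41. All were below 1 on both arrays, though none was beyond 1.3-fold on both. At the upper end Cfap221 had ratios of 0.26 and 0.11, while Cfap46 (-0.06 and -0.02) and Cfap44 (-0.07 and -0.01) came next. Cfap57, picked out after its values were seen, read 338 and 171 on array 1 but 89 and 129 on array 2, with ratios of -0.98 and 0.54. The arrays thus disagreed on it by more than for any other member above background.

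Of the 10 dynein heavy chains above background, none lay beyond 1.3-fold on both arrays. Dnah7b (0.35 and 0.25) and Dnah2 (0.28 and 0.18) were the highest and above 1 on both arrays, followed by Dnah17 (0.0049 and 0.25). Another Dnah7b probe above background gave -0.12 and -0.10, so the sign of Dnah7b depended on the probe. Dnah1 (-0.39 and -0.21), Dnah11 (-0.41 and 0.05) and Dnah8 (-0.13 and -0.03) were the lowest. Dnah7a and Dnah7b are near-identical copies, so probes of either may take up transcripts of both. The median of the 10 was -0.02 on array 1 and 0.04 on array 2. The antisense Dnah2os had ratios of -0.17 and 0.01.

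Foxj1 was lower in lu/lu on both arrays. Its single probe read 207 in wild type and 123 in lu/lu on array 1, with Feature Extraction errors of 20.9 and 12.4, and 136 and 87.8 on array 2, with errors of 13.7 and 8.88. Both lu/lu values were below both wild type values. The log2 ratios were -0.75 and -0.63, beyond 1.3-fold each time. Since 3 of the 4 signals were under 200, Foxj1 missed the filter. limma over the 23283 genes above background gave an adjusted p of 0.252 (0.00196 unadjusted), and it called 0 genes at an adjusted p under 0.05 but 17% of them at an unadjusted p under 0.05. Among genes above background that missed the filter, 3.18% were called lower and 2.46% higher, and of the 31 members in that set 1 was called lower, Foxj1, and 0 higher. With normexp and loess the ratios were -0.61 and -0.48, still beyond 1.3-fold. With normexp and median centring they were -0.24 and -0.25 and the call was lost, in a setting where the median of all passing genes was 0.55.

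The genes around Foxj1 were taken from lists of ciliogenesis regulators and motile cilium parts. Of 11 regulators, 10 were above background, and 2 of these, Ccno and Gmnc, were called lower, where 2.07% of all genes above background were. Rfx5, Lrrc6, Pih1d3 and Ak7 of the lists were not well above background on at least 1 channel and are given no ratio. Ccno, a cyclin needed for the centriole amplification of multiciliated cells, read 174 in wild type and 40.9 in lu/lu on array 1, and 65.4 and 22.6 on array 2. Its log2 ratios were -2.09 and -1.53, and they were -1.49 and -0.85 with normexp and loess. Gmnc, which starts the multiciliated programme upstream of Mcidas and Foxj1, read 54.4 and 15.1, then 21.7 and 10.1, with ratios of -1.85 and -1.10. With normexp and loess the Gmnc ratios were -0.87 and -0.30, and the call was lost. The wild type signal of Foxj1, Ccno and Gmnc was higher on array 1 than on array 2, and for Ccno and Gmnc the lu/lu signal was lower than the wild type signal of either array.

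Mcidas, the co-regulator that acts with E2f factors, passed the filter and was not called. It read 1164 in wild type and 1061 in lu/lu on array 1, and 1293 and 1243 on array 2, with ratios of -0.13 and -0.06. The passing factors of the family that binds the X-box were not called, Rfx3 having ratios of 0.22 and 0.12, Rfx4 of 0.03 and 0.34 and Rfx1 of -0.0093 and -0.15. Zmynd10, which helps to assemble dynein arms, was called lower at 34.4 and 16.9, then 14.9 and 9.93, with ratios of -1.02 and -0.59. Drc1, of the nexin-dynein link, was called lower at 71.4 and 44.9, then 50.8 and 37.2, with ratios of -0.67 and -0.45. With normexp and loess the calls of Zmynd10 (-0.35 and -0.19) and Drc1 (-0.43 and -0.24) were lost. Ccno, Gmnc, Zmynd10 and Drc1 all missed the filter, and for all of them the adjusted p in the fit over genes above background was 0.252. Signal-to-noise ratios ran from 1.07 to 4.72 for Zmynd10, all under the limit of 5, and from 1.99 to 8.54 for Gmnc.

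**Figure D5:**
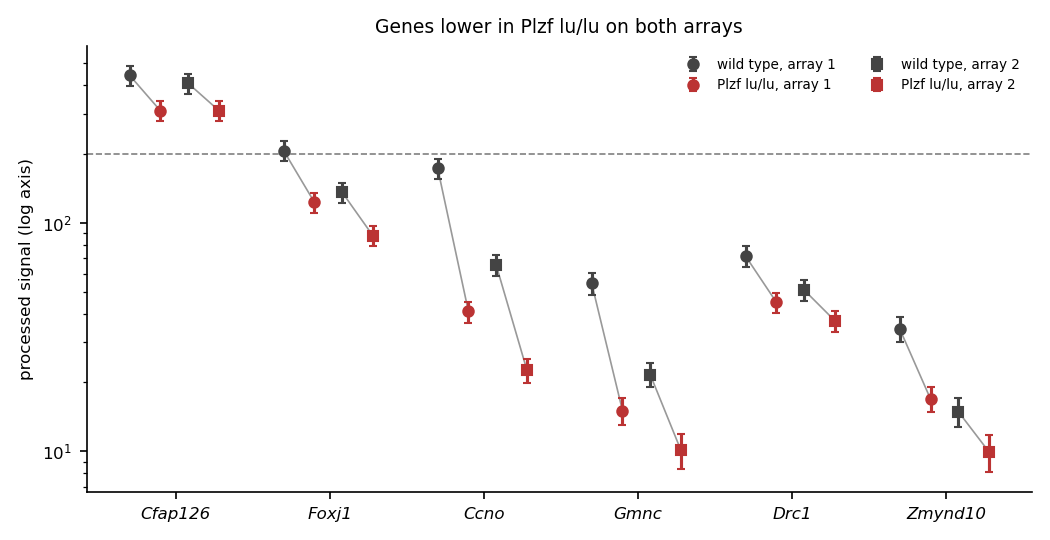
Processed signal (y axis, log scale) of Cfap126 and of 5 genes under the signal filter (x axis) in wild type (grey) and lu/lu (red), circles for array 1 and squares for array 2, with bars for the Feature Extraction error of the spot. The dashed line is the filter at 200. Within each array every lu/lu value lies below its wild type partner, which follows from the choice of genes called lower on both arrays.

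The remaining cilium genes were read as lists. Of 38 further dynein arm, assembly, radial spoke, central pair and nexin link genes, 8 passed the filter and 28 were above background. A ratio below 1 on both arrays was found in 15 of those 28, 53.6%, against 33.2% of all genes above background, and 2 of the 28, 7.14%, were called lower against 2.07%. Rsph1 (-0.64 and -0.24), a radial spoke head protein, and Tekt1 (-0.22 and -0.22), a tektin, were among the 15, whereas Hydin, of the central pair, was above 1 on both arrays at 0.38 and 0.26. Of 57 further genes for transport, ciliary motors, the BBSome, the transition zone and the ciliary membrane, 41 passed the filter and 0 were called in either direction. There 15 of the 56 above background, 26.8%, were below 1 on both arrays and 27, 48.2%, were above 1 on both. Trim32, with ratios of 0.54 and 0.32, Dync2h1, the motor of the return journey, with 0.42 and 0.17, and Wdr34, an intermediate chain of it, with -0.23 and -0.27, were examples. limma called none of the passing genes of these lists at an adjusted p under 0.05, and at an unadjusted p under 0.05 it took in 10 of the 41 and 1 of the 8, against 27.8% of all passing genes, so neither count stood above the background.

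Marker lists of the tissue and of other cells also differed between the channels. The multiciliated cell markers above background were 7 genes already given (Mcidas, Gmnc, Ccno, Foxj1, Tekt1, Rsph1 and Hydin), so this list adds no separate value. Neuroepithelium markers summed to 37024.5 in wild type and 38725 in lu/lu on array 1 and to 35751 and 45711 on array 2. Neuron markers summed to 7293 and 7791 on array 1 and to 6425 and 10249.5 on array 2, and all 8 genes of each of these lists had a mean ratio above 1. Endothelial markers had 8 of 8 genes above background and 6 of 8 called lower, where 2.07% of all genes above background were, with a summed signal of 1545 and 1064 on array 1 and 1624 and 951 on array 2. Primitive erythrocyte markers summed to 347113 and 185605 on array 1 but to 147627 and 178768 on array 2, so wild type on array 1 stood apart from the other samples. Surface ectoderm markers summed to 8729.6 and 13086 on array 1 and to 12438 and 9643 on array 2, in opposite directions. Cranial mesenchyme markers summed to 12167 and 12838, then 10059 and 9845. Floor plate markers summed to 2497 and 3166 on array 1 and to 2480 and 4383 on array 2. Of these 8 genes, 6 had a ratio above 1 on both arrays, against 33.4% of all genes above background, and 2 had a mean ratio below 1. Of the 5 that passed the filter 3 were called higher, where 2.58% of all passing genes were. The part of each of these in the ratios of Foxj1, Cfap126, Ccno and Gmnc was not tested.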

How the data were processed

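RNA from E10.5 forebrain and midbrain was amplified, labelled and hybridised by the authors to Agilent mouse arrays with probes placed on mm9. The arrays shared 1 slide and 1 scan. The authors quantified the scans with Feature Extraction 10.7.3.1, which subtracted local background and normalised the dyes within each array by rank-consistent LOWESS. The deposited processed signals are intensity values, the deposited LogRatio column is log10 of red over green, and the deposited value table holds log2 ratios, used as an alternative. The methods' rule (signal over 200, signal-to-noise ratio of at least 5, 1.3-fold) was applied in all 4 channels and on both arrays. The methods do not say in which channels it was asked for, and the study's list holds Zbtb16, which missed the filter as applied here. Signal-to-noise was the mean signal minus the median background, over the background's pixel SD.

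Controls and flagged outliers were dropped, replicate spots averaged, and each gene read from its brightest probe. The log2 ratio of red over green was tested with limma (version 3.58.1, R 4.3.3: an intercept model, eBayes, Benjamini-Hochberg adjustment), checked on simulated data. The number of arrays, 2, limits the precision, and no gene spot was saturated. Motifs were counted with Python and figures drawn with matplotlib 3.10.9. Array names were kept. An accession in RefSeq was matched for 56 of 66 members, all with the same symbol, and 8 further genes whose current symbol would meet the rule (3 passed the filter, 0 called) stayed out.

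Named were Foxj1, Cfap126, the kinesin-II, gate and signalling members, in each class the 3 highest and 3 lowest by mean ratio, separately past and under the filter, and genes of the cilium lists beyond 1.3-fold on both arrays (marker genes are given as lists). Exceptions to this rule were named for their role or after their values were seen (Cfap57, Ift88, Mcidas, the Rfx factors, Rsph1, Tekt1, Hydin, Trim32, Dync2h1, Wdr34, Shh, the sex-linked genes). Members, lists and tests were chosen with earlier results of these data known. The alternatives were normexp (offset 50) before either loess or median centring, the authors' table, 3 other filters, the mean over probes, removal of the GC trend, 1.5-fold, a variance trend, unpaired channels and each array alone.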

Additional observations from a re-analysis of the deposited data

How the results depend on the processing

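Of the 30 passing members, 1 was called beyond 1.3-fold, and the count stayed at 1 with the GC trend removed, the deposited table and the signal filter in at least 1 channel of each array. It was 0 at 1.5-fold, 0 with the mean over probes (10 members tested), 0 with normexp and loess, 2 among genes well above background and 4 with no filter. Leaving out each array gave 1 to 2, Ift22 being the addition on array 1 alone. Normexp with median centring raised the median of all passing genes to 0.55 and the count to 17, all higher in lu/lu and all relative to that shift; limma then called 28 members, and Cfap126 reversed to 0.021. With the GC trend removed limma called 1 member, Cfap126, and apart from these 2 settings it called 0. No replicate block applied, since each ratio pairs the channels of 1 array, and the unpaired fit without that pairing called 0 members. The transport median was 0.026 over both arrays, -0.027 with the GC trend removed, 0.047 with no filter and among genes well above background, 0.52 with median centring, and 0.040 to 0.065 when each array was left out. The axonemal median of 0.058 was 0.62 with median centring, -0.060 with no filter, -0.066 among genes well above background and -0.08 to 0.17 when each array was left out. The difference of the medians, -0.032, was negative under 5 of 10 alternatives and positive under 5. The cause of these changes was not tested. Low signal limits 31 members that were above background and under the filter, 22 of them axonemal.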
